A study of Mus musculus with 6 samples.

Results

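Natriuretic peptide signalling was described across atrioventricular canal regions of the embryonic mouse heart by 7 genes, the hormones Nppa, Nppb and Nppc, the receptors Npr1, Npr2 and Npr3, and the protease gene Corin. They were chosen by name, and all 7 were among the 18810 genes of the deposited table. RNA was sequenced from 3 Scx-/- embryos, which are homozygous null for the transcription factor gene Scleraxis (Scx) in all tissues, and from 3 wild type Scx+/+ littermates, all of the C57BL/6 strain and collected at embryonic day 15.5. The dissected regions held the mitral, tricuspid and aortic valves and were not sorted, so the libraries mix valve cells with endocardium and remaining heart muscle. The comparison of genotypes asks which transcripts differ in remodeling valves when Scx is absent.

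The natriuretic peptides are hormones that lower blood pressure and restrain growth of heart and vessel cells. Nppa encodes atrial natriuretic peptide (ANP) and Nppb encodes B-type natriuretic peptide (BNP), both made by heart muscle cells, and Nppc encodes C-type natriuretic peptide (CNP), made mainly by endothelium and cartilage. ANP and BNP act through the guanylyl cyclase encoded by Npr1 and CNP through the one encoded by Npr2, so that the target cell makes cyclic GMP. Npr3 encodes a receptor without a cyclase domain that takes up and clears all 3 peptides and is strongly expressed by embryonic endocardium. Corin encodes a membrane protease of heart muscle that cuts the ANP precursor into the active hormone. In the embryo, Nppa marks the chamber myocardium and is held low in the atrioventricular canal myocardium by the repressors Tbx2 and Tbx3.

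The hormones of this family share a ring closed by a disulfide bond, which is the part that the receptors bind. The bases that encode this ring of 17 residues are shown for Nppb and Nppc, whose peptides act through different cyclase receptors. They were read from the GENCODE transcripts of mm9, each is one block within exon 2 of 3, and capitals mark the 40 of 51 positions at which both genes have the same base.
Nppb: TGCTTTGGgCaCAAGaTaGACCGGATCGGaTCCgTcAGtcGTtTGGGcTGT
Nppc: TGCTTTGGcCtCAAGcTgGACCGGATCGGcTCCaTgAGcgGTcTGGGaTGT
They lie at chr4:147360573-147360623 on the plus strand for Nppb and at chr1:88566242-88566292 on the minus strand for Nppc. The coding sequence holds 121 codons in Nppb and 126 in Nppc, and ends with the ring in Nppc, whereas 6 codons follow the ring in Nppb.

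In mm9, Nppb (ENSMUSG00000029019, chromosome 4 from 147359897 to 147361314) and Nppa (ENSMUSG00000041616, chromosome 4 from 147374831 to 147376188) are neighbours on the same strand, and Nppc (ENSMUSG00000026241) lies on chromosome 1 from 88562866 to 88567147. The receptors are Npr1 (ENSMUSG00000027931, chromosome 3 from 90254513 to 90269788), Npr2 (ENSMUSG00000028469, chromosome 4 from 43644807 to 43664116) and Npr3 (ENSMUSG00000022206, chromosome 15 from 11769651 to 11835429). Npr3 is on the same chromosome as Scx. Corin (ENSMUSG00000005220) spans chromosome 5 from 72691264 to 72895779.

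Levels are given as RPKM, reads per kilobase of exon scaled to library depth, which can be compared between genes, and the reads behind them were recovered from RPKM and exon length. Where 3 values are listed for the null (Scx-/-) or wild type (Scx+/+) libraries, they stand in the order of replicates 1, 2 and 3. The recovered depth was 46429835 to 68571247 reads per library. Scx-/- replicate 3 and Scx+/+ replicate 2 stood apart from the other 4 libraries in several genes below, and Scx+/+ replicate 2 also had the most genes at the low fill-in value of the table, 2252 against 1088 to 1465. The RPKM of Scx+/+ replicate 2 summed to 2295481, against 820019 to 1240390 in the others. Its top 10 genes held 56.9% of that sum, against 30.7% to 43.9%. Scx itself, counted over the whole gene, stood at 33.6, 18.6 and 82.9 RPKM across the null libraries and 29.5, 58.3 and 26.0 RPKM across the wild type libraries, so that it does not check the genotype labels, and libraries are named by label. The study reports a separate check before sequencing, in which expression of the first exon of Scx was strongly decreased in the Scx-/- samples. Whole-gene values do not cover that check.

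The 7 genes spanned more than 3 orders of magnitude. By the mean over the 6 libraries, Nppa was highest at 762 RPKM and ranked between 90 and 244 among the 18810 genes of each library. Nppb followed at 241 RPKM, then Npr3 at 17.2 RPKM, Corin at 13.5 RPKM, Npr1 at 1.26 RPKM, Npr2 at 1.00 RPKM and Nppc at 0.385 RPKM. Nppa was above Nppb in 6 of 6 libraries, but the ranges of these neighbours in the order overlapped. Npr3 was above Corin in 5 of 6 and Npr1 above Npr2 in 5 of 6, also with overlapping ranges, and Npr2 was above Nppc in 6 of 6 with overlapping ranges. Nppb and Npr3, and Corin and Npr1, had separate ranges. The clearance receptor Npr3 exceeded the cyclase receptor Npr1 by 8.73-fold to 18.5-fold and Npr2 by 13.7-fold to 63.7-fold within each library.

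Between the genotypes, 1 of the 7 genes, Nppc, passed an unadjusted p of 0.05 in limma, which is what called means here, and it was higher in Scx-/-. Of all 18810 genes, 731 or 3.89% were called, 2.82% higher and 1.06% lower in Scx-/-. After adjustment over all genes, 0 genes (0%) were called in limma, and the adjusted p of the 7 genes ran from 0.967 to 1.00. One-way tests on log2 RPKM, with variances not shared across genes, called 1 gene after adjustment, not one of the 7. The libraries of both genotypes were separate without overlap for Nppc alone among the 7, as for 9.50% of all genes (7.19% higher and 2.31% lower in Scx-/-). The median log2 fold change was -0.01 over the 7 genes and 0.10 over all genes.

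**Figure D1:**
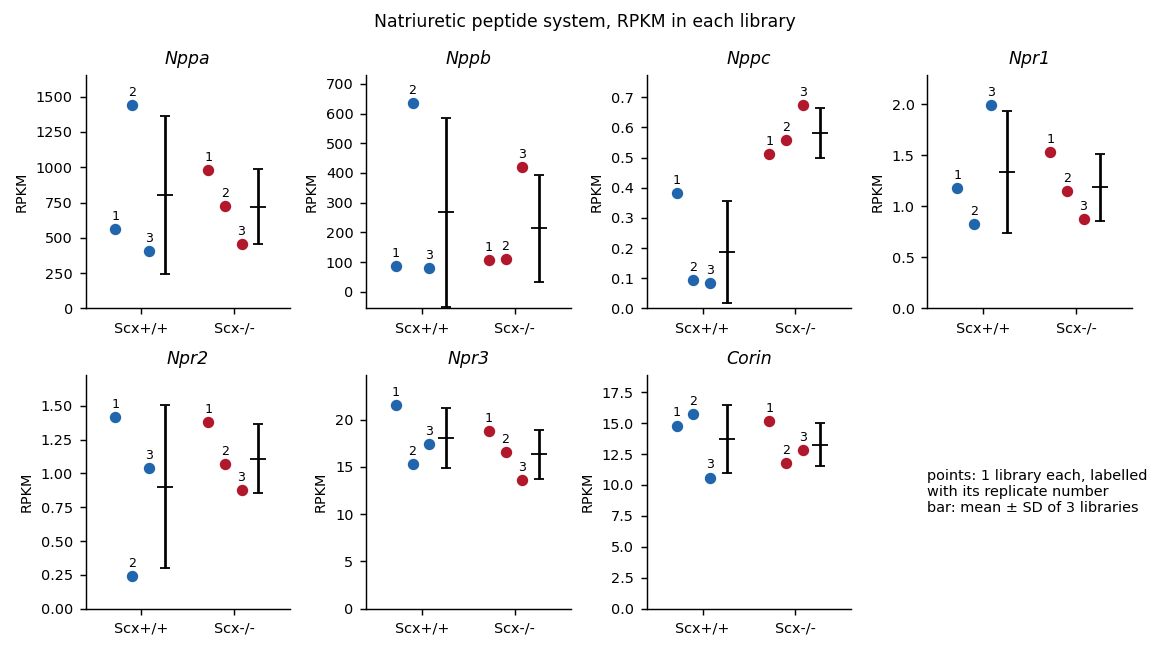
RPKM of each gene (y axes, linear, each with its own scale) in the 3 Scx+/+ (blue) and 3 Scx-/- (red) libraries, numbered by replicate, with the mean and SD beside them. Nppb was 421 RPKM in Scx-/- replicate 3 and 636 RPKM in Scx+/+ replicate 2 against 80.0 to 111 RPKM in the other 4 libraries, and the genotypes were separate only for Nppc.

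Nppa, the ANP gene, was 982, 724 and 453 RPKM across the null libraries and 564, 1440 and 407 RPKM across the wild type libraries. Scx+/+ replicate 2 was the highest library and the other Scx+/+ libraries lay among or below the Scx-/- libraries, so the genotypes overlapped. The null mean was 720 ± 264 RPKM (SD, n = 3) and the wild type mean 804 ± 557 RPKM (SD, n = 3). Its log2 fold change, Scx-/- minus Scx+/+ on log2(RPKM + 0.1), was -0.01 with a 95% interval from -1.09 to 1.06, so that a change of 2-fold either way lies within the interval. Without Scx+/+ replicate 2 it was 0.52 (unadjusted p = 0.189 from limma), and without Scx+/+ replicate 2 and Scx-/- replicate 3 together, an alternative chosen after seeing the data, 0.82 (unadjusted p = 0.0406, adjusted p = 0.578 from limma).

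The antisense gene Gm13054 (ENSMUSG00000086806, chromosome 4 from 147375200 to 147378123 on the minus strand) shares 532 exonic bases with Nppa, which are 61.5% of the Nppa exons and 64.9% of its own. It was listed at 520, 388 and 268 RPKM across the null libraries and at 315, 821 and 240 RPKM across the wild type libraries. Its ratio to Nppa stayed between 0.529 and 0.591 in all 6 libraries. The sources used here do not state that the counting used strand, and without strand the reads of both genes cannot be told apart. The Npr1 and Npr2 exons overlap those of antisense genes by 559 and 266 bases, 11.7% and 5.70% of their length.

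Nppb, the BNP gene, was 108, 111 and 421 RPKM across the null libraries, with 4432, 5812 and 19649 reads behind it. Across the wild type libraries it was 86.9, 636 and 80.0 RPKM, with 4073, 23053 and 4285 reads. One library of each genotype was high and the other 4 were close together, so that the spread within a genotype exceeded the difference between them. The null mean was 214 ± 180 RPKM (SD, n = 3), the wild type mean was 268 ± 319 RPKM (SD, n = 3), and the log2 fold change was 0.07 (95% interval -1.75 to 1.89). Its sign followed the library left out, from -0.58 without Scx-/- replicate 3 to 1.04 without Scx+/+ replicate 2. With both left out, the log2 fold change was 0.40 (unadjusted p = 0.0186, adjusted p = 0.578 from limma). These libraries were chosen after their Nppb values were seen, and leaving them out removes most of the spread within each genotype, so this p does not support a difference. In that setting 1587 genes were called, against 731 with all libraries.

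Nppa was not high in both libraries with high Nppb. The level of Nppa over that of Nppb was 9.06, 6.52 and 1.08 across the null libraries and 6.49, 2.27 and 5.09 across the wild type libraries. It was thus lowest in Scx-/- replicate 3, where Nppb was high and Nppa was not, and next lowest in Scx+/+ replicate 2, where both were high. The ratio did not differ between the genotypes beyond the spread between libraries (log2 difference -0.08, exact permutation test, two-sided, p = 1.00, where the smallest possible is 0.1).

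Heart muscle markers, from the cells that make BNP, and a blood marker also set these libraries apart. The 16 identifiers of 15 heart muscle markers summed to 25279 RPKM in Scx-/- replicate 3 and 28500 RPKM in Scx+/+ replicate 2, against 16396 to 21829 RPKM in the other 4. Among them, Myh6, the alpha myosin heavy chain, was 1556 and 2219 RPKM against 900 to 1147 RPKM. Not every marker set both libraries apart. Myh7 was 2148 and 2826 RPKM against 1923 to 2824 RPKM, and the giant sarcomere gene Ttn was 157 and 92.4 RPKM against 152 to 200 RPKM. In the opposite direction to Nppb, Hbb-y, an embryonic globin gene, was 1.16 and 1.99 RPKM in these libraries against 49.6 to 125 RPKM in the others. Protein-coding genes with exons under 1000 nt, a class that includes Nppa and Nppb, had a median log2 ratio to the mean library of 0.12, -0.07 and 0.08 across the null libraries and -0.20, 0.28 and -0.23 across the wild type libraries. It was highest in Scx+/+ replicate 2, but Scx-/- replicate 1, with low Nppb, was above Scx-/- replicate 3. For exons over 5000 nt the medians were 0.10, 0.05 and -0.12 and then 0.15, -0.21 and 0.02, lowest in the libraries with high Nppb. The part of muscle content, blood content and exon length in the Nppb values was not tested. In these unsorted regions, fewer cells of a type and less RNA per cell cannot be told apart.

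**Figure D2:**
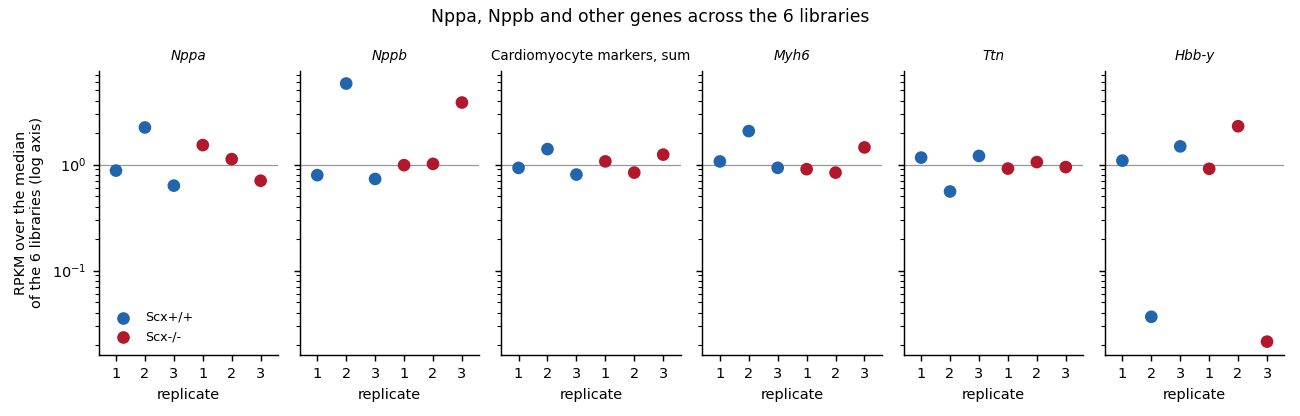
RPKM over the median of the 6 libraries (y axis, log scale) for Nppa, Nppb, the summed heart muscle markers, Myh6, Ttn and Hbb-y in Scx+/+ (blue) and Scx-/- (red) replicates 1 to 3 (x axis). Nppb and Hbb-y set Scx+/+ replicate 2 and Scx-/- replicate 3 apart in opposite directions, while Nppa was highest in Scx+/+ replicate 2 and below its median in Scx-/- replicate 3.

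Nppc, the CNP gene, was 0.513, 0.558 and 0.674 RPKM across the null libraries, with 28, 39 and 42 reads behind them. It was 0.383 RPKM in Scx+/+ replicate 1, from 24 reads, listed at the fill-in value of 0.0949 RPKM in Scx+/+ replicate 2, and 0.0839 RPKM in Scx+/+ replicate 3, from 6 reads. The last value lies below the fill-in value and had not been replaced by it, so replicate 2 holds a replacement and replicate 3 a value of its own. Every Scx-/- library was above every Scx+/+ library, the highest of which was Scx+/+ replicate 1. The ratio of the mean RPKM was 3.10 and the log2 fold change 1.39 (SE, the standard error, 0.57, 95% interval 0.09 to 2.69, unadjusted p = 0.0384, adjusted p = 0.967 from limma). The study listed Nppc among its most changed genes from these same libraries, so its direction is not independent evidence. All values rest on fewer than 50 reads. Nppc was not called without Scx-/- replicate 3 (unadjusted p = 0.0659 from limma), without Scx+/+ replicate 2 (0.0708) or without Scx+/+ replicate 3 (0.0641), and its log2 fold change lay between 1.14 and 1.84 over the 6 leave-one-out fits, each made without 1 library. The size depended on the pseudocount, with a log2 fold change of 0.42 at a pseudocount of 1 and 1.90 at 0.01, and 1.99 on log2 RPKM without one.

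Of 12 endothelial and endocardial markers, all detected in every library, 0 were called in limma, and their summed level was 133 to 157 RPKM in Scx-/- and 134 to 152 RPKM in Scx+/+. Against the mean log2 level of these markers, Nppc was -3.31 ± 0.32 (SD, n = 3) in Scx-/- and -4.80 ± 0.70 (SD, n = 3) in Scx+/+, a difference of 1.50 with no overlap (exact permutation test, two-sided, p = 0.1, the smallest possible). That difference was 0.50 with a pseudocount of 1 and 2.02 with 0.01. Of 7 epicardial markers, 3 were called higher, beside 2.82% of all genes. These were Tcf21 (log2 fold change 0.57), Upk1b (0.61) and Aldh1a2 (0.60). The median log2 fold change of the 7 was 0.32, against 0.10 over all genes. The epicardial markers summed to 31.1 to 40.6 RPKM in Scx-/- and 25.9 to 29.4 RPKM in Scx+/+, and 0 of 7 were called lower. After centring each library on a median log2 ratio of 0, the log2 fold changes were 0.46 for Tcf21, 0.50 for Upk1b and 0.49 for Aldh1a2, and none passed the threshold (unadjusted p = 0.0676, 0.0512 and 0.0564 from limma). With single libraries left out, Tcf21 was called in 3 of 6 fits, Upk1b in 2, those without Scx-/- replicate 3 or Scx+/+ replicate 2, and Aldh1a2 in 1, that without Scx+/+ replicate 2. Of 11 markers of cushion and valve mesenchyme, 1 was called, the proteoglycan gene Lum (log2 fold change 0.85, higher in Scx-/-). As a list they showed no common direction, with 5 of 11 log2 fold changes above 0 and a median of -0.01. Their sum was 674 to 889 RPKM in Scx-/- and 595 to 671 RPKM in Scx+/+, and the most abundant were Postn, at a mean of 254 RPKM over all libraries, and Dcn, at 144 RPKM. Of the 11, 3 were higher in Scx-/- without overlap and 1 was lower, beside 7.19% and 2.31% of all genes. The lower one, the collagen gene Col1a1, was 7.34 to 8.09 RPKM in Scx-/- and 8.36 to 15.8 RPKM in Scx+/+, and was not called. The part of these cells in the Nppc values was not tested.

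Npr1, the ANP and BNP receptor, was 1.53, 1.15 and 0.878 RPKM across the null libraries and 1.18, 0.829 and 1.99 RPKM across the wild type libraries. The highest and the lowest library were both Scx+/+, and the genotypes overlapped. The log2 fold change was -0.10 (95% interval -1.02 to 0.82). Npr2, the CNP receptor, was 1.38, 1.07 and 0.875 RPKM across the null libraries with 336, 336 and 244 reads, and 1.42, 0.240 and 1.04 RPKM across the wild type libraries with 398, 52 and 333 reads. Apart from Scx+/+ replicate 2, which was low, the libraries of both genotypes covered the same range. The log2 fold change of Npr2 was 0.51 (95% interval -0.78 to 1.80), and without Scx+/+ replicate 2 it was -0.14. Of the wild type libraries with the lowest Nppc, replicates 2 and 3, Npr2 was low in replicate 2 and not in replicate 3.

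Npr3, the clearance receptor, was 18.8, 16.6 and 13.6 RPKM across the null libraries and 21.5, 15.3 and 17.4 RPKM across the wild type libraries, from 5019 to 9122 reads per library. It varied by 1.59-fold over the 6 libraries, against 2.41-fold for Npr1 and 5.92-fold for Npr2. The genotypes overlapped, with a log2 fold change of -0.15 and a 95% interval from -0.60 to 0.31, which leaves out a change of 2-fold either way. The direction was the same in all 6 leave-one-out fits (-0.26 to -0.01). Against the 12 endothelial and endocardial markers, Npr3 was 1.28 ± 0.15 (SD, n = 3) in Scx-/- and 1.32 ± 0.18 (SD, n = 3) in Scx+/+ on the log2 scale, a difference smaller than the spread (exact permutation test, two-sided, p = 0.7).

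Corin, the ANP convertase gene, was 15.2, 11.8 and 12.8 RPKM across the null libraries and 14.8, 15.7 and 10.6 RPKM across the wild type libraries. It was the steadiest of the 7 genes, with a 1.48-fold range over the libraries, and was not raised with Nppb in Scx-/- replicate 3. The log2 fold change was -0.03 (95% interval -0.50 to 0.44). Set against the mean log2 level of the heart muscle markers, the difference between genotypes was -0.03 for Corin, -0.01 for Nppa and 0.06 for Nppb (exact permutation tests, two-sided, p = 0.9, 1.00 and 0.9). Of the heart muscle markers, 1 was called, the calcium release channel gene Ryr2, lower in Scx-/- (log2 fold change -0.46), although not with the trend on exon length removed (unadjusted p = 0.195 from limma), and of 5 atrial and 5 ventricular markers 0 were called in limma. The atrial markers summed to 878 to 1144 RPKM in Scx-/- and 828 to 1181 RPKM in Scx+/+, and the ventricular ones to 7298 to 11311 RPKM and 5965 to 11676 RPKM.

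**Figure D3:**
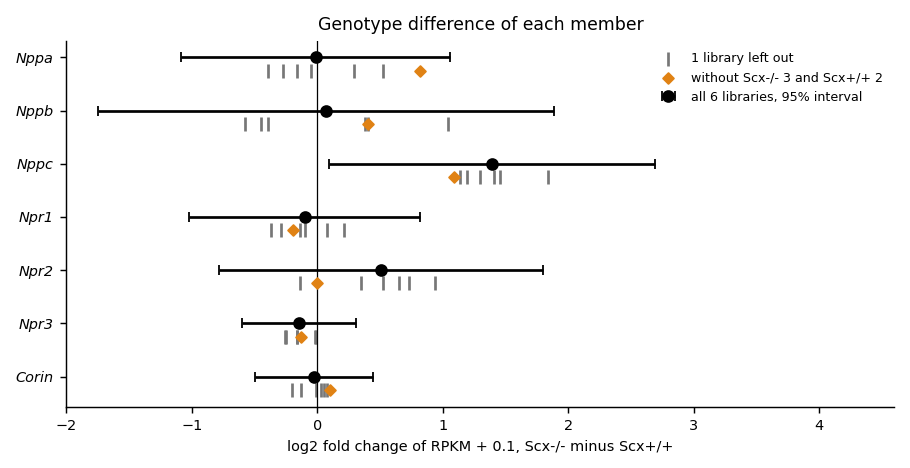
Log2 fold change of each gene between Scx-/- and Scx+/+ (x axis, positive where Scx-/- was higher) with its 95% interval from limma (black), the 6 values with 1 library left out (grey ticks), and the value without Scx-/- replicate 3 and Scx+/+ replicate 2 (orange). The interval was above 0 for Nppc alone, and the left-out values of Nppa, Nppb, Npr1, Npr2 and Corin fell on both sides of 0.

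Other genes that process or clear the peptides were measured for 4 of the 5 listed, and 1 was called, beside 3.89% of all genes. Ide encodes insulin-degrading enzyme, a protease that also degrades natriuretic peptides. It was 35.5, 25.4 and 31.5 RPKM across the null libraries and 21.7, 23.9 and 17.4 RPKM across the wild type libraries. The genotypes did not overlap, as for 7.19% of all genes that were higher in Scx-/-. Ide had a log2 fold change of 0.55 (SE 0.20, unadjusted p = 0.0205, adjusted p = 0.967 from limma), and it was called in 3 of 6 leave-one-out fits and not without Scx-/- replicate 1, Scx-/- replicate 3 or Scx+/+ replicate 3. Mme, which encodes the peptide-degrading protease neprilysin, was 0.841 to 2.34 RPKM and overlapped between the genotypes. The convertase gene Furin was 0.299 to 0.635 RPKM in Scx-/- and 0.453 to 1.19 RPKM in Scx+/+, and Pcsk6, whose product activates corin, was 0.785 to 1.21 RPKM over all libraries.

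Downstream of the receptors, 14 of 16 genes for cyclic GMP synthesis, breakdown and response were measured. Of these 1 was called, beside 3.89% of all genes. Mrvi1, a substrate of cyclic GMP-dependent protein kinase at the calcium store, was 0.417, 0.444 and 0.360 RPKM across the null libraries and 0.610, 1.07 and 1.12 RPKM across the wild type libraries. All null values lay below all wild type values, as for 2.31% of all genes. In the other direction, Rgs2 of the same list was 5.46 to 6.41 RPKM in Scx-/- and 3.87 to 5.31 RPKM in Scx+/+. It was also without overlap, as for 7.19% of all genes, and was not called. Mrvi1 had a log2 fold change of -0.99 (SE 0.42, unadjusted p = 0.0446, adjusted p = 0.967 from limma), and 2 of 6 leave-one-out fits called it, those without Scx-/- replicate 2 and without Scx+/+ replicate 1. The kinase gene Prkg1 was 6.73 to 10.1 RPKM in Scx-/- and 5.39 to 10.1 RPKM in Scx+/+. Soluble guanylyl cyclase, which answers nitric oxide and not the peptides, was represented by Gucy1b3 at 21.6 to 28.1 RPKM in Scx-/- and 16.4 to 23.6 RPKM in Scx+/+, levels above those of both cyclase receptors. The median log2 fold change of the 14 genes was -0.02, against 0.10 over all genes.

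Of 11 transcription factors that control chamber genes such as Nppa, 0 were called in limma, and their log2 fold changes lay within 0.29 of 0. Gata4, an activator of the natriuretic peptide genes, was 5.92 to 11.1 RPKM in Scx-/- and 6.76 to 9.79 RPKM in Scx+/+, and Nkx2-5 was 4.31 to 8.03 RPKM and 4.03 to 7.31 RPKM. The repressors were low in all libraries, with Tbx3 at 0.749 to 1.09 RPKM and Tbx2 at 0.240 to 0.680 RPKM. The highest of the list was Tbx20, at 35.4 to 62.9 RPKM in Scx-/- and 34.5 to 61.0 RPKM in Scx+/+. The lowest Tbx20 values were those of Scx-/- replicate 3 and Scx+/+ replicate 2, the libraries with high Nppb. This was not particular to Tbx20. The mean log2 level of the whole list was also lowest there, 1.92 and 2.15 against 2.29 to 2.60 in the others. Nkx2-5, Mef2c and Hand2 were lowest in the same libraries, whereas Gata6 and Srf were not.

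**Figure D4:**
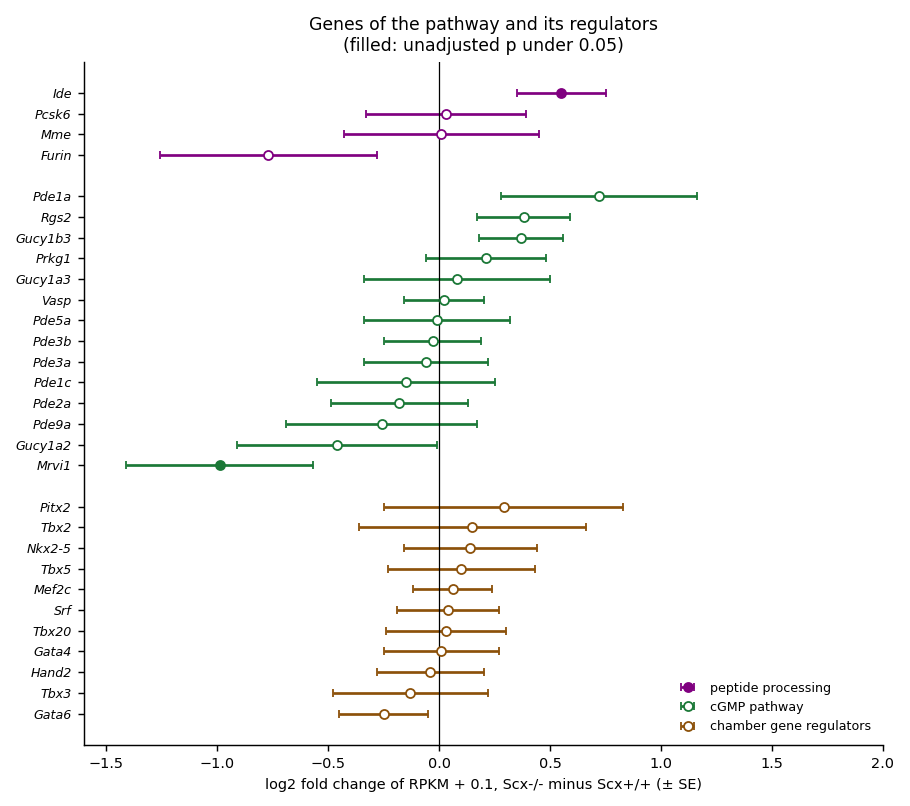
Log2 fold change between Scx-/- and Scx+/+ (x axis, positive where Scx-/- was higher) with its standard error for the measured genes of peptide processing, the cyclic GMP pathway and chamber gene regulation, ordered by value within each list. Filled points, Ide above 0 and Mrvi1 below, passed an unadjusted p of 0.05 in limma.

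Genes with the most similar profile were sought by Pearson's r of log2(RPKM + 0.1) over the 6 libraries among the 13827 genes that averaged 1 RPKM or more. They were the highest of many correlations over few libraries and are given as a description without a test. For Nppa they were Stard10 (r = 0.998), the overlapping Gm13054 (0.996) and Ptpmt1 (0.991), and for Npr3 they were Kbtbd7 (0.998), Cux1 (0.997) and Ccdc136 (0.994). For Nppc they were Csnk2a1 (0.995), Cenpi (0.990) and Fam149b (0.990), with 0.911 to 0.968 when the 2 Scx+/+ libraries with low Nppc were left out. For Nppb, whose libraries fell into 2 clusters, 215 genes had r over 0.95, led by Ndufb5, Brp44l and Tceal7. Ndufb5, a subunit of respiratory complex I, was 160 RPKM in Scx-/- replicate 3 and 190 RPKM in Scx+/+ replicate 2 against 78.7 to 92.8 RPKM in the other 4 libraries, and Brp44l, a subunit of the mitochondrial pyruvate carrier, 54.0 and 63.5 RPKM against 19.1 to 24.3 RPKM.

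Scx is a basic helix-loop-helix factor, a family that binds the E-box CANNTG. The promoters of the 3 hormone genes are shown for this reason, each from 250 bases before to 50 bases after the start in RefSeq of GRCm38.p6, a later build than the mm9 of the table, with E-boxes in capitals. They lie at chr4:148000472-148000771 on the plus strand for Nppa, at chr4:147985650-147985949 on the plus strand for Nppb and at chr1:86670524-86670823 on the minus strand for Nppc.
Nppa: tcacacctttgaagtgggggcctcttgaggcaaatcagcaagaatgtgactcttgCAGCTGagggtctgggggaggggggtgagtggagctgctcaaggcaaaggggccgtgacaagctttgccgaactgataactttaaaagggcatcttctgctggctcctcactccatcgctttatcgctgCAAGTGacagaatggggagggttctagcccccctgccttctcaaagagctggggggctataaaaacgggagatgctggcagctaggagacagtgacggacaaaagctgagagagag
Nppb: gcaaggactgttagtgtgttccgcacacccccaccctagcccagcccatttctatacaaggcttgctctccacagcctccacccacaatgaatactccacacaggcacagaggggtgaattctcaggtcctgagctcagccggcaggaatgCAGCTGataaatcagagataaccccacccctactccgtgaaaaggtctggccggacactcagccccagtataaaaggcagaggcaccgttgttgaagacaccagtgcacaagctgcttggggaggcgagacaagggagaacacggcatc
Nppc: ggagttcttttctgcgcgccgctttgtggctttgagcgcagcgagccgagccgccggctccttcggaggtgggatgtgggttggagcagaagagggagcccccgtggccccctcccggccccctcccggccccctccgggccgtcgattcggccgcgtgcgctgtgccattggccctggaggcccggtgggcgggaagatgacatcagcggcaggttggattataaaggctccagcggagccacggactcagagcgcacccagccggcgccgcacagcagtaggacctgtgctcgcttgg
An E-box was found 2 times in the Nppa window, 1 time in the Nppb window and 0 times in the Nppc window, and it is present in 72.3% of all promoters of this length. Npr2, Npr3 and Corin had 1 each and Npr1 had 0. The GATA factor motif, searched as AGATAA or TGATAA on both strands, was found 1 time for Nppa and 2 times for Nppb, and in 18.6% of all promoters. In Nppb the first of these overlaps the E-box by 2 bases. The TATA box TATAAA, searched on both strands, was found in all 3 hormone promoters and in none of the 4 others, and is in 13.6% of all promoters. A match is a description of these letters and not evidence of binding.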

How the data were processed

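RNA from 3 Scx-/- and 3 Scx+/+ atrioventricular canal regions was sequenced on an Illumina instrument. By the study's methods, the authors aligned reads to mm9 with TopHat 1.4.1, counted them in Ensembl exons with easyRNASeq and deposited RPKM, kept where a library reached about 50 reads, with values of 10 reads or fewer stated to be replaced by a common value (0.0949 RPKM in the table). Nppc is listed below that value in Scx+/+ replicate 3, from 6 recovered reads. The study describes the common value as an average over all samples. By the stated rule a value from 6 reads would have been replaced, and why this one was kept was not tested. The strand of the counting is not given in the sources used here. The fill-in compresses low values such as those of Nppc.

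Identifiers were matched to GENCODE for mm9 (18695 of 18810). Depth was solved for so that RPKM times exon length came out as whole reads (to within 0.1 read in 98.45% to 98.57% of values under 1000 reads). Reads were used only to describe precision, since RPKM are not counts, and intervals cover the spread between libraries.

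Genotypes were compared on log2(RPKM + 0.1) by limma (version 3.58.1, R version 4.3.3) without covariates, with its trend on mean level. P-values were adjusted by Benjamini and Hochberg over all 18810 genes, and the code was tested on simulated data. Such fold changes understate the change of low genes. Called means an unadjusted p under 0.05. Single values were compared by exact permutation of the 3 against 3 libraries, which cannot give a two-sided p below 0.1. The 3 libraries of a genotype are separate embryos. Tables and figures were made in Python 3.11.15 (scipy 1.17.1; matplotlib 3.10.9; pandas 2.3.3; numpy 2.4.6).

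The members, the 11 other lists and the alternatives were chosen with earlier results of these data known. By rule the text could name the members, Scx, any gene of the processing, cyclic GMP and chamber regulator lists, marker genes that were called or the 2 most abundant of a list, and the 3 genes most like Nppa, Nppb, Nppc and Npr3 in profile. Myh6, Myh7, Ttn and Hbb-y were chosen after their values were seen, as were Col1a1 and the antisense gene Gm13054. The list genes Ostn, Gucy2c, Prkg2, Epb4.2 and Ahsp were not analysed here. The other lists were summarised as counts. For smooth muscle, 0 of 5 markers were called in limma, with summed levels of 477 to 671 RPKM in Scx-/- and 445 to 541 RPKM in Scx+/+. For erythroid cells, 0 of 5 were called, with 25.9 to 167 RPKM and 23.1 to 119 RPKM. Alternatives were pseudocounts of 0.01 and 1, a mean of at least 1 RPKM, no trend, one-way tests on RPKM and log2 RPKM, quantile normalization, the median log2 ratio set to 0, replicate number or library sex (from Xist and Y-linked genes) as a term, each library left out and, added later, removal of a spline on exon length and of both libraries that stood apart.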

Additional observations from a re-analysis of the deposited data

How the results depend on the processing

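Npr3 kept its direction under all 18 alternatives, and Nppc under the 17 that could test it, since its mean is below 1 RPKM. The Nppc log2 fold change was 0.42 and 1.90 with pseudocounts of 1 and 0.01. Over the 6 leave-one-out fits, the log2 fold change was -0.39 to 0.52 for Nppa, -0.58 to 1.04 for Nppb, 1.14 to 1.84 for Nppc, -0.37 to 0.21 for Npr1, -0.14 to 0.94 for Npr2 and -0.20 to 0.08 for Corin. Relative to the marker lists it was -0.27 to 0.41 for Nppa, -0.46 to 0.87 for Nppb, -0.12 to 0.11 for Corin, -0.13 to 0.05 for Npr3 and 1.28 to 1.90 for Nppc. Without Scx-/- replicate 3 and Scx+/+ replicate 2 together, it was 0.82 for Nppa, 0.40 for Nppb, 1.09 for Nppc (unadjusted p = 0.139 from limma), 0.00 for Npr2 and 0.10 for Corin, and 0.77 for Nppa and 0.05 for Corin relative to the muscle markers. Nppa turned to 0.04 under quantile normalization. Nppb turned to -0.33 in the one-way test on RPKM, -0.04 after centring on the median log2 ratio and -0.05 after the exon length trend was removed. The causes were not tested.

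Genes called at an unadjusted p numbered 539 to 1549 over the leave-one-out fits (1549 without Scx+/+ replicate 2), 1587 without both libraries, and 568 to 862 otherwise. After adjustment, 1 gene was called in the one-way test on log2 RPKM and 0 in the other alternatives. The members called were 0 to 1 with each library left out, 0 with only genes of a mean of at least 1 RPKM, where Nppc is not tested, 0 with the replicate block, and 2 (Nppa and Nppb) without both libraries.

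Same-numbered libraries of the genotypes did not deviate together (correlations of 0.09, -0.22 and -0.19), and the numbers were not taken as pairs. With 3 libraries per genotype, these correlations cannot show whether same-numbered libraries shared a litter or preparation. With the replicate block, 573 genes were called, and Nppc had a log2 fold change of 1.39 with an unadjusted p of 0.0699 from limma. The block changed no other call among the members. Not every library correlated best with its own number. Depth limits Nppc most, with at most 42 reads in a library, and the spread between 3 libraries limits Nppa, Nppb and Npr2.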
